A study of Arabidopsis thaliana with 42 samples.

Results

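The 10 genes described here are components of the plant circadian clock, taken as a list of loci and examined across all groups of the study: LHY (AT1G01060), CCA1 (AT2G46830), RVE8 (AT3G09600), PRR9 (AT2G46790), PRR7 (AT5G02810), TOC1 (AT5G61380), GI (AT1G22770), ELF4 (AT2G40080), LUX (AT3G46640, named PCL1 in RefSeq) and JMJD5 (AT3G20810). They are 10 of the 37336 genes of each count table, chosen by name together with levels already seen in these libraries (the bud difference of JMJD5, and the MTN1 level that marks wild type), and 10 of 10 passed the filter on low counts in seedlings and in flower buds. The clock is a set of genes that repress and activate each other in turn, so that each transcript peaks at its own time of day. LHY and CCA1, a pair of closely related MYB transcription factors, peak in the morning and repress genes that peak in the evening. RVE8 is a related MYB factor that activates evening genes. PRR9 and PRR7 are pseudo-response regulators that follow through the day and repress LHY and CCA1. TOC1, a further pseudo-response regulator, peaks in the evening, as do GI, which acts in protein stability and flowering, and ELF4 and LUX, which with ELF3 form the evening complex, a repressor of genes such as PRR9. JMJD5 is a jumonji-domain protein whose transcript follows that of TOC1. Because the levels of such transcripts differ with the hour, the genes can also serve as a check of whether groups were taken at the same time of day. For the seedlings, kept under continuous light without day and night, such a check is limited. The hour of harvest is not given in the sources used here, and its part in any difference below was not tested.

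The study measured polyadenylated RNA of Arabidopsis thaliana (strain Col-0) by sequencing. Whole seedlings aged 14 days, kept under continuous light of 100 µmol per square metre and second, came from wild type (WT), mtn1-1mtn2-1 and mtn1-1mtn2-5 plants, with 3 libraries per group. Unopened flower buds, from plants moved to soil under long days at 150 µmol per square metre and second, came in 3 labelled genotypes (WT, mtn1-1mtn2-1 and G3), with 4 libraries per group. The genotype of G3 is given as mtn1-1mtn2-1 (G3), without saying what G3 stands for. MTN1 (AT4G38800) and MTN2 (AT4G34840) encode methylthioadenosine nucleosidases, which act on methylthioadenosine left over when polyamines and ethylene are made. Each genotype was raised on MS medium (mock) or on MS medium with spermidine, a polyamine, at 100 µM. Each sample was about 50 mg of pooled ground tissue, and nothing says that replicates were separate cultures or plants, so p-values measure only the spread between these samples. Libraries were made by more than 1 provider, and which provider made which library is not given in the sources used here, so provider and group cannot be told apart. In such tissue samples, fewer cells of a type and less RNA per cell cannot be told apart either.

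The disrupted genes were read in every library first. Among mock seedlings MTN1 stood at 104, 100.4 and 106 CPM (counts relative to the library total, adjusted by TMM factors) in WT. It stood at 5.93, 4.30 and 5.33 CPM in mtn1-1mtn2-1 and at 4.46, 20.7 and 4.89 CPM in mtn1-1mtn2-5, where replicate 2 was above the others. MTN2 was at 0.112 to 0.129 CPM in mtn1-1mtn2-1 and at 7.97 to 9.19 CPM in mtn1-1mtn2-5, against 6.82 to 7.14 CPM in WT. In the bud count table the levels went against the names WT and G3. MTN1 was at 4.80, 5.07, 5.98 and 5.16 CPM in the mock libraries labelled WT and at 90.6, 89.7, 90.6 and 84.3 CPM in those labelled G3, and MTN2 at 0.0124 to 0.262 CPM and 8.16 to 10.4 CPM. In mtn1-1mtn2-1 buds, MTN1 was at 4.04, 4.10, 3.71 and 3.99 CPM. The deposited TPM table of the same buds carries the names WT and G3 the other way round. All 16 bud columns named WT or G3 in the count table were closest in profile to a TPM column that bears the opposite name and shares medium and replicate number, while the 8 mtn1-1mtn2-1 columns and the 18 seedling columns were closest to their own name. In the TPM table, MTN1 in mock buds averaged 119 TPM in those named WT, 6.85 TPM in those named G3 and 5.04 TPM in mtn1-1mtn2-1. The names of the TPM table, and not those of the count table, thus go with the MTN1 and MTN2 levels. The names of the count table are kept here only as labels, "labelled WT" (MTN1 low) and "labelled G3" (MTN1 high). Under the names of the TPM table, each bud library labelled WT is a G3 library and the reverse, so that each difference between these 2 groups changes sign. A comparison of either with mtn1-1mtn2-1 then becomes the comparison with the other, and its sign need not turn.

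In flower buds the clock genes split into opposed groups, and the libraries labelled WT and labelled G3 stood at opposite ends. On mock medium LHY, CCA1, RVE8 and PRR9 were lowest by group mean in the libraries labelled WT and highest in those labelled G3. TOC1, GI, ELF4 and LUX were highest in the libraries labelled WT and lowest in those labelled G3. The mtn1-1mtn2-1 buds lay between them for these 8 genes. Between the lowest and the highest of the 6 bud group means, LHY spanned 37.5-fold, ELF4 36.98-fold, PRR9 28.7-fold, RVE8 26.1-fold, CCA1 22.6-fold and TOC1 7.05-fold. The spans were 3.59-fold for LUX, 2.93-fold for GI and 1.92-fold for PRR7. JMJD5 spanned 30.2-fold. Its difference between bud genotypes was already known when the genes were chosen, so those comparisons are given for it without a test.

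The promoters of LHY and CCA1, which were high together, and of TOC1 and LUX, which were high in the opposite libraries, are shown with the motifs bound by clock factors. Each is the 300 bases before the annotated gene start, from RefSeq TAIR10.1, 5′ to 3′ on the strand of the gene. Capitals mark the evening element AAAATATCT, to which CCA1, LHY and RVE8 bind, and the G-box CACGTG, which bHLH and bZIP factors bind, on either strand.
LHY, minus strand, chr1:37872-38171: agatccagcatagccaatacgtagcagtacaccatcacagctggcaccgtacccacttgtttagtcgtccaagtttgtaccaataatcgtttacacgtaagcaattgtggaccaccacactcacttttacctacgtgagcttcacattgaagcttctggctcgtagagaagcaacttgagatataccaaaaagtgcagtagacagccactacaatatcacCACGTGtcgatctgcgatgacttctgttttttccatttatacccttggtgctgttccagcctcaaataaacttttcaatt
CCA1, plus strand, chr2:19245291-19245590: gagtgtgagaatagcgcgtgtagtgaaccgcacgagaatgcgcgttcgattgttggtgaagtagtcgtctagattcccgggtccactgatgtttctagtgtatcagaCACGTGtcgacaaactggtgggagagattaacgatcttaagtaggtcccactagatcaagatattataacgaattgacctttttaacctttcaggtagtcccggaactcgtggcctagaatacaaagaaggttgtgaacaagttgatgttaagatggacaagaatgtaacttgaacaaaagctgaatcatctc
TOC1, plus strand, chr5:24674663-24674962: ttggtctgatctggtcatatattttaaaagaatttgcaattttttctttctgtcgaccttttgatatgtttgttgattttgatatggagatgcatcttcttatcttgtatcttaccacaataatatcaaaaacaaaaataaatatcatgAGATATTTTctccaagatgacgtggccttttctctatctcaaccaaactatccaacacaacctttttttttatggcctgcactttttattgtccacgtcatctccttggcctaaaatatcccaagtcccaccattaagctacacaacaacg
LUX, plus strand, chr3:17182742-17183041: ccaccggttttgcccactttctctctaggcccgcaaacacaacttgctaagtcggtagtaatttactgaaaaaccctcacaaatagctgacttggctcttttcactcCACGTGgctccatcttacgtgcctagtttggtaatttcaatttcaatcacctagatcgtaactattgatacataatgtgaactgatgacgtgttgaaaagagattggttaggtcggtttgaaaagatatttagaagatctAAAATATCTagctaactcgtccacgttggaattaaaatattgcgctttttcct
The evening element stood 151 to 143 bases before the TOC1 start, on the opposite strand, and 53 to 45 bases before the LUX start. It was in 2 of the 10 member promoters, and in 2.79% of the 27443 promoters of that length. The G-box was in 5 of the 10, those of LHY, CCA1, PRR9, PRR7 and LUX, and in 7.09% of all promoters. The CCA1-binding site AAAAATCT was in 0 of the 10 and in 7.94% of all. The 3 motifs do not contain one another. These are matches of letters in a window and were not read as sites.

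LHY had the widest span of group means among the members in buds. On mock medium it stood at 2.14, 3.0, 2.12 and 2.05 CPM in the libraries labelled WT, at 87.1, 20.5, 23.9 and 13.5 CPM in mtn1-1mtn2-1 and at 81.9, 99.1, 83.3 and 85.0 CPM in those labelled G3. The 4 libraries labelled WT were below all others, and in mtn1-1mtn2-1 replicate 1 lay with the libraries labelled G3 while its 3 partners did not. On spermidine it stood at 2.10, 2.80, 2.64 and 1.80 CPM, 22.1, 18.3, 17.1 and 19.6 CPM and 76.5, 64.4, 49.7 and 51.8 CPM in the same order, and there the 3 genotypes did not overlap. Comparing mock libraries labelled G3 with those labelled WT, the log2 fold change of LHY was 5.23 (SE 0.43, adjusted p = 6.78e-09) by edgeR's quasi-likelihood test with Benjamini-Hochberg adjustment over all genes tested. In mtn1-1mtn2-1 against labelled WT it was 3.96 (SE 0.41, adjusted p = 4.50e-07), and 3.08 without replicate 1 of mtn1-1mtn2-1. In labelled G3 against mtn1-1mtn2-1 it was 1.27 (SE 0.36, adjusted p = 0.00881), and 2.16 without that replicate. In a fit of these 2 groups alone that call was lost (1.27, adjusted p = 0.0877), as was that of ELF4.

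CCA1, the closest relative of LHY, took the same order. It stood at 4.59, 3.51, 4.16 and 3.19 CPM in the mock libraries labelled WT, at 60.2, 33.0, 21.8 and 16.6 CPM in mtn1-1mtn2-1 and at 81.8, 88.6, 85.9 and 89.9 CPM in those labelled G3. The 3 groups did not overlap, and replicate 1 was again the highest of mtn1-1mtn2-1. On spermidine the levels were 4.11, 3.93, 3.68 and 3.57 CPM, 22.6, 36.1, 34.7 and 22.3 CPM and 70.8, 70.3, 63.2 and 55.8 CPM. RVE8 ran from 1.35 to 1.73 CPM in the mock libraries labelled WT through 7.83 to 32.9 CPM in mtn1-1mtn2-1 to 22.9 to 26.1 CPM in those labelled G3. The last 2 groups overlapped, with replicate 1 of mtn1-1mtn2-1 above every library labelled G3. PRR9, which follows LHY and CCA1 in the morning, stood at 2.29, 2.04, 2.76 and 1.50 CPM in the mock libraries labelled WT, 34.3, 29.6, 12.1 and 11.7 CPM in mtn1-1mtn2-1 and 35.4, 35.4, 36.4 and 35.5 CPM in those labelled G3. In mtn1-1mtn2-1, replicates 1 and 2 were close to the libraries labelled G3 and replicates 3 and 4 were lower. On spermidine PRR9 ranged over 12.4 to 37.3 CPM in mtn1-1mtn2-1 and 13.3 to 24.7 CPM in the libraries labelled G3, which overlapped.

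The evening genes took the reverse order. TOC1 stood at 173, 178, 212 and 182 CPM in the mock libraries labelled WT, at 26.4, 66.8, 53.4 and 57.4 CPM in mtn1-1mtn2-1 and at 27.8, 31.8, 31.8 and 27.0 CPM in those labelled G3. Replicate 1 of mtn1-1mtn2-1, the library highest in LHY, was the lowest of its group here and lay below the libraries labelled G3. The log2 fold change of TOC1 in libraries labelled G3 against labelled WT was -2.65 (SE 0.20, adjusted p = 2.11e-09), and in mtn1-1mtn2-1 against labelled WT it was -1.87 (SE 0.20, adjusted p = 5.97e-07). In labelled G3 against mtn1-1mtn2-1 it was -0.79 (SE 0.19, adjusted p = 0.00312), by the same edgeR test.

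ELF4, a subunit of the evening complex, had the widest span of the evening genes. It stood at 116, 109, 119 and 92.4 CPM in the mock libraries labelled WT, 1.91, 13.4, 4.12 and 9.19 CPM in mtn1-1mtn2-1 and 2.52, 2.45, 4.20 and 2.96 CPM in those labelled G3. The libraries labelled WT were above all others, and replicate 1 of mtn1-1mtn2-1 was below every library labelled G3. Its log2 fold change was, for labelled G3 relative to labelled WT, -5.17 (SE 0.45, adjusted p = 1.55e-08). In labelled G3 against mtn1-1mtn2-1 it was -1.23 (SE 0.40, adjusted p = 0.0204). That call was lost when replicate 1 or 2 of labelled G3 or replicate 2 or 4 of mtn1-1mtn2-1 was left out, with values of -1.17, -1.17, -0.76 and -1.11. LUX, the DNA-binding subunit of the evening complex, ran from 22.4 to 24.8 CPM in labelled G3 over 18.3 to 38.5 CPM in mtn1-1mtn2-1 to 79.7 to 87.4 CPM in labelled WT. LUX overlaps the gene AT3G46650 in the annotation, and no strand setting is given, so its counts could hold reads of that gene. GI ran from 64.6 to 70.4 CPM over 55.1 to 128 CPM to 163 to 197 CPM in the same order of groups, and only the libraries labelled WT stood clear of both other groups on mock medium.

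**Figure D1:**
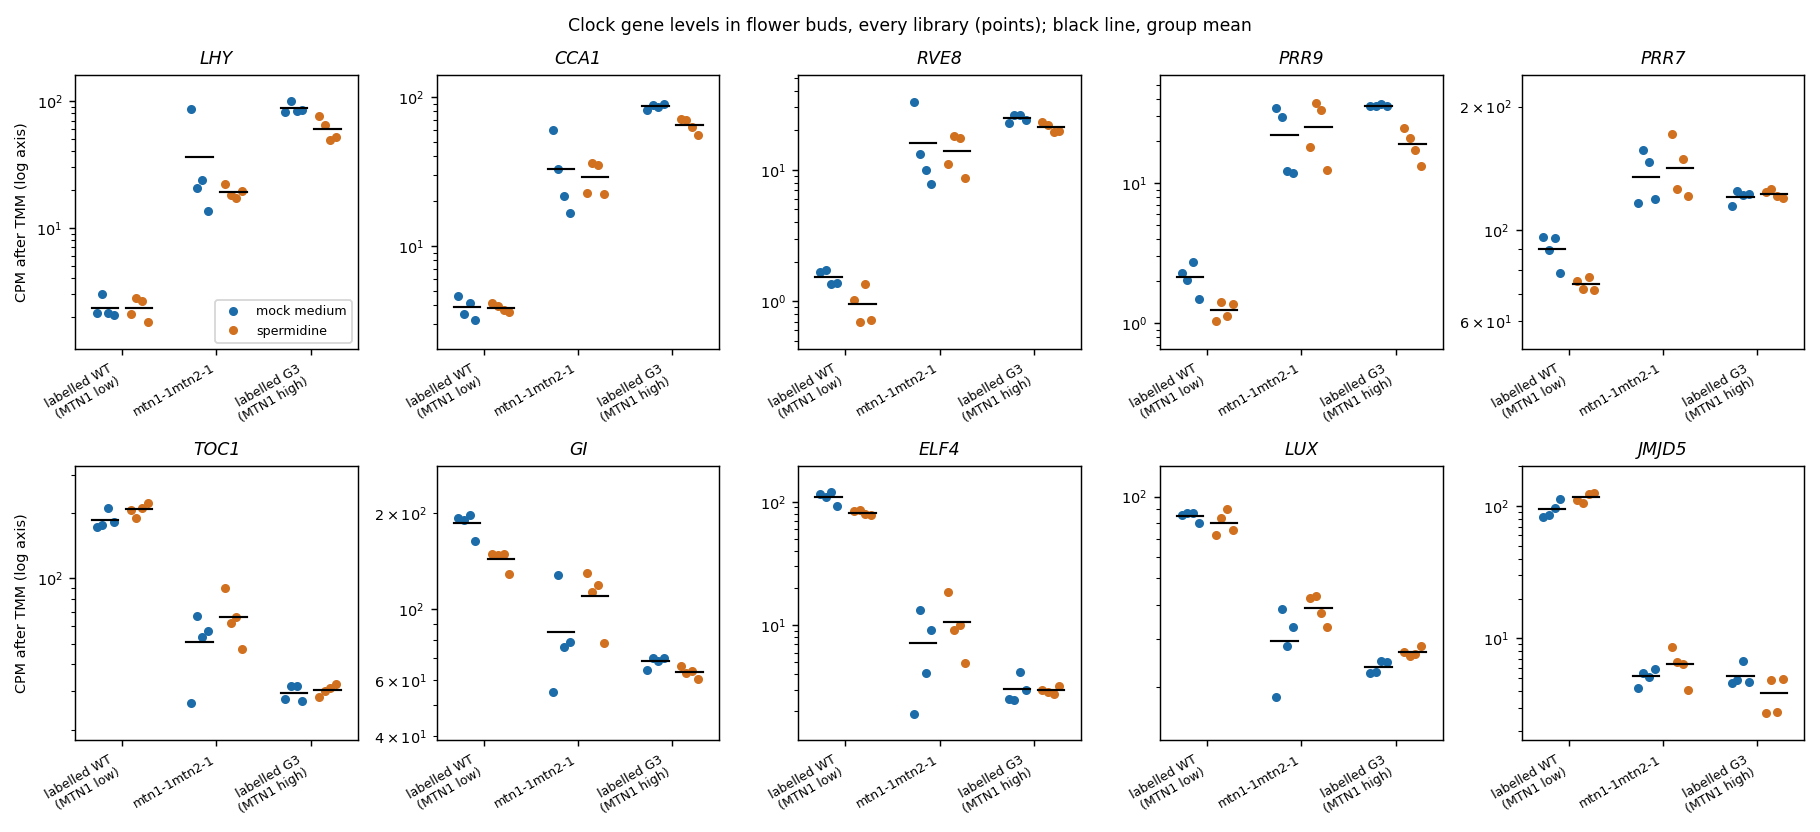
Level of each of the 10 clock genes in the 24 bud libraries, in CPM after TMM scaling on a log axis, with mock medium in blue, spermidine in orange and group means as black lines. LHY runs from a mean of 2.33 CPM in mock libraries labelled WT to 87.4 CPM in those labelled G3, and TOC1 the other way, from 186 to 29.6 CPM; under the names of the TPM table labelled WT and labelled G3 are exchanged.

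PRR7 and JMJD5 departed from these orders. PRR7 stood at 96.1, 89.5, 95.6 and 78.7 CPM in the mock libraries labelled WT, 117, 157, 147 and 119 CPM in mtn1-1mtn2-1 and 114, 124, 122 and 122 CPM in those labelled G3. The libraries labelled WT were the lowest and the other 2 groups overlapped. Its log2 fold change was 0.42 (SE 0.10, adjusted p = 0.00229) in labelled G3 against labelled WT and 0.58 (SE 0.10, adjusted p = 0.000224) in mtn1-1mtn2-1 against labelled WT. JMJD5 stood at 82.2, 86.0, 97.2 and 113 CPM in the mock libraries labelled WT, 4.22, 5.45, 5.15 and 5.90 CPM in mtn1-1mtn2-1 and 4.59, 4.87, 6.77 and 4.72 CPM in those labelled G3. The mtn1-1mtn2-1 libraries overlapped those labelled G3 for JMJD5, while for TOC1, whose transcript it is known to follow, 3 of the 4 lay above them. On spermidine JMJD5 ranged over 106 to 125 CPM in libraries labelled WT, 4.07 to 8.60 CPM in mtn1-1mtn2-1 and 2.74 to 4.96 CPM in those labelled G3.

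The ratio of LHY to TOC1, a morning against an evening gene, placed each library on 1 scale. Its log2 value ran from -6.64 to -5.89 in the 4 mock libraries labelled WT and from 1.39 to 1.65 in those labelled G3. The mtn1-1mtn2-1 mock buds were at 1.72, -1.70, -1.16 and -2.09, so that replicate 1 stood with the libraries labelled G3 and the other replicates stood between the groups. On spermidine the ratio ran from -6.96 to -6.09 in libraries labelled WT, from -2.03 to -1.26 in mtn1-1mtn2-1 and from 0.68 to 1.43 in those labelled G3. The ratio of CCA1 to GI, built from another pair, was 0.13 on the log2 scale in that replicate 1 and -2.25 to -1.80 in its 3 partners. In seedlings the LHY to TOC1 ratio stayed between -0.28 and 1.69 over all 18 libraries. It was 1.02 to 1.06 in WT and 0.18 to 0.54 in mtn1-1mtn2-1 on mock medium. Seedlings and buds differed in light regime and age, so no test was made between them.

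**Figure D2:**
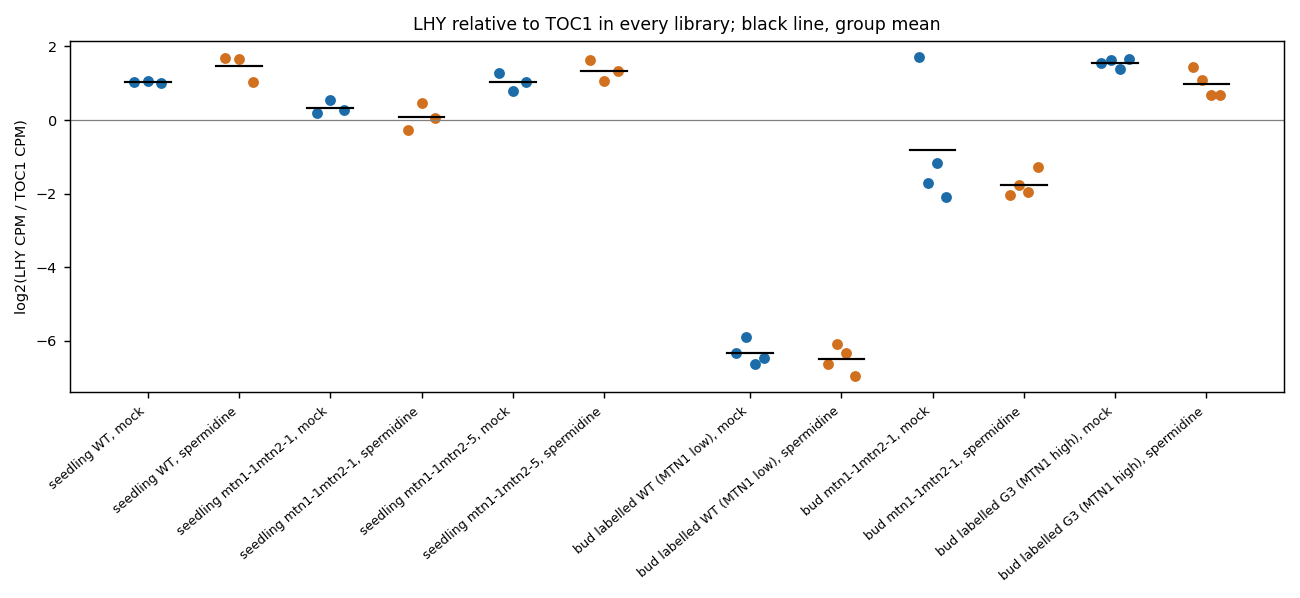
Log2 ratio of LHY CPM to TOC1 CPM in each of the 42 libraries, by group, with mock medium in blue, spermidine in orange and group means as black lines. Seedling libraries lie between -0.28 and 1.69, while bud libraries labelled WT lie at -5.89 or below and replicate 1 of the mtn1-1mtn2-1 mock buds lies at 1.72, above its 3 partners.

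Counted over the 9 members other than JMJD5, 9 of 9 passed an adjusted p of 0.05 (were called) between buds labelled G3 and labelled WT on mock medium, 5 higher and 4 lower, where 29.5% of the 25730 genes tested were called. On spermidine 9 of 9 were called, again 5 higher and 4 lower, against 26.4% of all genes. The libraries labelled WT had MTN1 at mutant level, so mtn1-1mtn2-1 against labelled WT is by that level no comparison with wild type. In it 9 were called on mock medium, 5 higher and 4 lower, against 20.7% of all genes. On spermidine 8 were called, 5 higher and 3 lower, against 17.3%. The exception was GI, at 78.1 to 129.8 CPM in mtn1-1mtn2-1 and 129 to 149 CPM in labelled WT. In labelled G3 against mtn1-1mtn2-1, 4 of 9 were called on mock medium, LHY and CCA1 higher and TOC1 and ELF4 lower. That count lies near the share over all genes, of which 32.9% were called. Without replicate 1 of the mtn1-1mtn2-1 mock buds 8 of 9 were called there. On spermidine 6 of 9 were called, 2 higher and 4 lower, against 26.9%. The comparisons share the libraries labelled WT, mtn1-1mtn2-1 or G3, so their counts are not independent. Under the names of the TPM table, which go with the MTN1 levels, 4 of 9 were called in mtn1-1mtn2-1 against WT on mock medium. LHY and CCA1 were lower there and TOC1 and ELF4 higher, where 32.9% of all genes were called. In G3 against mtn1-1mtn2-1 the count under those names was 9 of 9, against 20.7% of all genes.

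Markers of tissue moved with some of these groups. The summed level of 5 green-tissue markers, with 5 of 5 detected in every bud group, was 6502 to 7680 CPM in the mock libraries labelled WT, 11427 to 18187 CPM in mtn1-1mtn2-1 and 10829 to 12794 CPM in those labelled G3. The 5 flower markers summed to 682 to 773 CPM, 758 to 876 CPM and 891 to 981 CPM, and the 6 tapetum markers to 622 to 711 CPM, 582 to 689 CPM and 517 to 619 CPM in the same order. Pollen markers (4 of 4 detected) summed to 949 to 1184 CPM, 496 to 679 CPM and 1294 to 1688 CPM, lowest in mtn1-1mtn2-1. The 4 ovule markers overlapped between all mock groups, from 62.3 to 80.5 CPM. On spermidine the green-tissue and flower markers were again lowest in labelled WT, at 6676 to 7389 CPM and 615 to 693 CPM. The tapetum markers overlapped between all genotypes there. Pollen markers of mtn1-1mtn2-1 on spermidine (583 to 931 CPM) overlapped those of labelled WT (887 to 1257 CPM). None of these markers was at 0 in buds, and in seedlings the tapetum and pollen markers each summed to under 1 CPM in every library. The part of these shifts in the clock gene differences was not tested.

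Between the media, 0 of the 10 members were called in buds of any label by edgeR, and 0 by DESeq2 and by limma on the TPM table. At an unadjusted p under 0.05 there were 3 in libraries labelled WT, 3 in mtn1-1mtn2-1 and 2 in those labelled G3. Over all genes, 0.948%, 0.0972% and 0.0155% were called in these comparisons. In libraries labelled G3, LHY stood at 87.4 ± 7.96 CPM (SD, n = 4) on mock medium and 60.6 ± 12.4 CPM (SD, n = 4) on spermidine, and PRR9 at 35.7 ± 0.503 CPM (SD, n = 4) and 19.1 ± 4.89 CPM (SD, n = 4). The 4 spermidine libraries were below the 4 mock libraries for both genes, and the differences did not pass the test over all genes. In fits of the compared groups alone, 2 members were called in libraries labelled G3 (CCA1 and PRR9) and 2 in those labelled WT (GI and ELF4), all lower on spermidine. The change of response between genotypes (the interaction) was called for 0 of 10 in mtn1-1mtn2-1 and 0 of 10 in labelled G3 by edgeR, DESeq2 and limma, with 3 and 2 at an unadjusted p under 0.05. Over all genes 0.346% and 0.00389% were called.

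Other genes of the clock were called in both directions in buds. Of 16 further clock genes, 7 were higher, 5 lower and 4 not called in libraries labelled G3 against those labelled WT on mock medium, where 29.5% of all genes were called, with a median log2 fold change of 0.08 beside -0.01 over all genes tested. FKF1, a blue-light receptor that targets repressors of flowering, differed by -5.71 (adjusted p = 6.60e-08) on the log2 scale, and PRR3, a further pseudo-response regulator, by -4.42 (adjusted p = 5.55e-10). LNK3 and LNK4, of a family that acts with RVE8, differed by 3.92 (adjusted p = 1.80e-09) and 3.81 (adjusted p = 8.69e-10). FKF1 and PRR3 were thus lower where ELF4 and TOC1 were lower, and the LNK genes higher where LHY was higher. Of 17 output genes of the clock, 10 were higher and 4 lower, with a median of 1.93. GRP7, an RNA-binding protein with an evening peak, differed by -4.86 (adjusted p = 8.39e-12), and COL1, related to the flowering gene CO, by 3.50 (adjusted p = 1.86e-10). Of 10 photoreceptor genes 5 were higher and 1 lower, with a median of 0.43, and the largest difference was 0.93 (adjusted p = 1.05e-07) for PHOT2, a blue-light receptor. In mtn1-1mtn2-1 against labelled WT, 6 of the 16 clock genes were higher and 5 lower, where 20.7% of all genes were called, with PRR3 at -3.28 (adjusted p = 6.10e-08) and LNK4 at 3.19 (adjusted p = 2.74e-08). Of the 17 output genes 9 were higher and 4 lower there, and of the 10 photoreceptors 6 and 1. In labelled G3 against mtn1-1mtn2-1 on mock medium, 5 of the 16 clock genes were higher and 4 lower, where 32.9% of all genes were called. FKF1 was at -2.69 (adjusted p = 0.000201) and LNK3 at 0.98 (adjusted p = 0.00627) there, by edgeR. Of the output genes 8 were higher and 4 lower, and of the photoreceptors 1 and 1. With the TPM table naming the libraries, the signs of labelled G3 against labelled WT turn. The values of mtn1-1mtn2-1 against labelled WT then become those against G3, and labelled G3 against mtn1-1mtn2-1 becomes WT against mtn1-1mtn2-1.

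In seedlings the members stayed much closer together than in buds. Between the lowest and highest of the 6 group means, the span was 1.25-fold for ELF4, 1.30-fold for RVE8, 1.48-fold for LUX, 1.58-fold for LHY, 1.73-fold for CCA1, 1.80-fold for TOC1, 2.0-fold for PRR7, 2.40-fold for JMJD5 and 2.43-fold for GI. PRR9 was the exception at 12.3-fold. Between genes, TPM, which are per length, gave in WT seedlings on mock medium 97.2 ± 5.85 TPM for LHY, 79.7 ± 7.72 TPM for ELF4, 37.6 ± 3.09 TPM for TOC1 and 2.01 ± 0.247 TPM for PRR9 (SD, n = 3). In mock buds named WT in the TPM table the same genes were at 57.6 ± 2.16 TPM, 7.16 ± 1.85 TPM, 16.6 ± 1.57 TPM and 28.1 ± 0.801 TPM (SD, n = 4). In those named G3 there they were at 1.34 ± 0.256 TPM, 254 ± 27.7 TPM, 102 ± 9.99 TPM and 1.56 ± 0.277 TPM. Per length, ELF4 was thus the higher of the pair ELF4 and LHY in buds named G3, and LHY in buds named WT and in WT seedlings on mock medium.

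**Figure D3:**
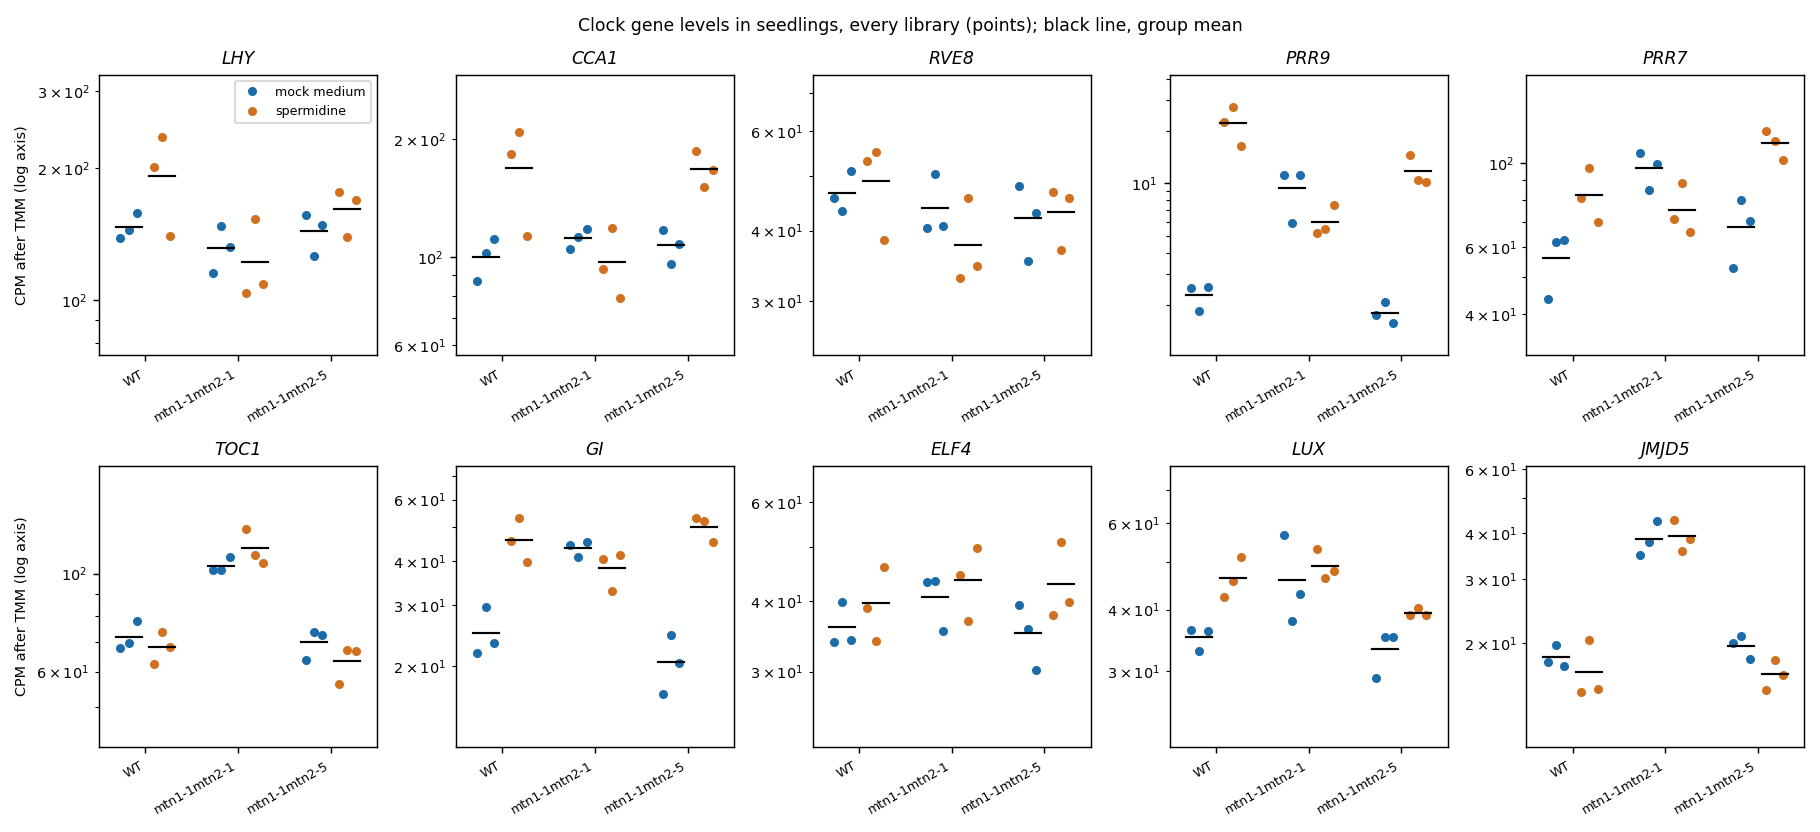
Level of each of the 10 clock genes in the 18 seedling libraries, in CPM after TMM scaling on a log axis, with mock medium in blue, spermidine in orange and group means as black lines. PRR9 has the widest span, from a mean of 1.80 CPM in mtn1-1mtn2-5 on mock medium to 22.1 CPM in WT on spermidine, and JMJD5 and TOC1 are highest in mtn1-1mtn2-1 on both media.

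In mtn1-1mtn2-1 seedlings on mock medium, 6 of the 10 members were higher than in WT and 0 were lower, where 15.7% of the 25201 genes tested were called. The median log2 fold change of the members was 0.46, beside 0.01 over all genes. The 6 were PRR9, PRR7, TOC1, GI, LUX and JMJD5, while LHY, CCA1, RVE8 and ELF4 were not called. PRR9 stood at 2.49, 1.83 and 2.52 CPM in WT and 11.1, 5.95 and 11.1 CPM in mtn1-1mtn2-1, a log2 fold change of 2.04 (SE 0.26, adjusted p = 0.000209) by edgeR. The groups did not overlap, and replicate 2 was the lowest of the mutant. JMJD5 stood at 17.8, 19.7 and 17.3 CPM and 34.9, 37.8 and 43.2 CPM, a change of 1.08 (SE 0.13, adjusted p = 0.000122). GI stood at 21.9, 29.6 and 23.3 CPM and 44.6, 41.1 and 45.4 CPM, a change of 0.81 (SE 0.15, adjusted p = 0.00248). Neither JMJD5 nor GI overlapped between the genotypes. TOC1 stood at 67.9, 69.6 and 78.3 CPM and 102, 102 and 109 CPM, a change of 0.53 (SE 0.09, adjusted p = 0.00197). PRR7 changed by 0.78 (SE 0.17, adjusted p = 0.00815) and LUX by 0.38 (SE 0.12, adjusted p = 0.0444). The call of LUX was the weakest and was lost when any 1 of 5 libraries was left out (WT replicates 1, 2 and 3, and mtn1-1mtn2-1 replicates 1 and 3), with values from 0.20 to 0.44. LHY differed by -0.16 with a 95% interval of -0.53 to 0.21, and CCA1 by 0.16 with -0.23 to 0.55.

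On spermidine the same pair of genotypes differed in another way. In mtn1-1mtn2-1 against WT, 2 members were higher and 3 lower, where 18.2% of all genes were called. TOC1 was higher by 0.74 (SE 0.09, adjusted p = 0.000113) on the log2 scale and JMJD5 by 1.24 (SE 0.13, adjusted p = 1.56e-05), in the direction they had on mock medium. PRR9, higher on mock medium, was lower here, at 22.4, 27.5 and 16.4 CPM in WT and 5.15, 5.44 and 7.46 CPM in mtn1-1mtn2-1, a log2 fold change of -1.88 (SE 0.25, adjusted p = 0.000182). CCA1 stood at 183, 208 and 113 CPM and 93.5, 119 and 79.0 CPM, a change of -0.79 (SE 0.19, adjusted p = 0.00838), and the groups overlapped because WT replicate 3 was low. LHY changed by -0.66 (SE 0.18, adjusted p = 0.0182). Its call was lost without WT replicate 1 or 2 or mtn1-1mtn2-1 replicate 1 on spermidine, with values of -0.62, -0.48 and -0.56. In a fit restricted to these groups 3 of the 10 were called, PRR9, TOC1 and JMJD5.

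Root markers moved with the mtn1-1mtn2-1 genotype in seedlings. The summed level of 5 root markers, of which 4 had a group mean of at least 1 CPM, was 59.7 to 75.3 CPM in WT and 41.0 to 53.5 CPM in the mutant on mock medium, and 52.7 to 86.8 CPM and 38.4 to 45.6 CPM on spermidine. In mtn1-1mtn2-5 its range was 58.6 to 74.9 CPM without and 60.7 to 67.0 CPM with spermidine. The summed green-tissue markers overlapped between all seedling groups, from 22414 to 31422 CPM. The part of the root markers in the clock gene differences was not tested.

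In mtn1-1mtn2-5 seedlings the clock genes were not called against WT on mock medium. By edgeR 0 of 10 were called, 0 at an unadjusted p under 0.05, and 0 by DESeq2 and by limma, where 7.69% of all genes were called. Without replicate 2, whose MTN1 level stood above its partners, the count was also 0. The interval of the difference was -0.16 to 0.37 for JMJD5, -0.24 to 0.16 for TOC1 and -0.89 to 0.20 for PRR9, on the log2 scale. On spermidine 1 of 10 was called, where 13.0% of all genes were. That gene was PRR9, at 14.6, 10.4 and 10.2 CPM in mtn1-1mtn2-5, a log2 fold change against WT of -0.91 (SE 0.25, adjusted p = 0.0224). Its call was lost without WT replicate 1 or 2 or mtn1-1mtn2-5 replicate 2 or 3 on spermidine, with values of -0.90, -0.72, -0.83 and -0.82.

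The direct comparison of the mutants showed the difference between them. On mock medium 6 members were lower in mtn1-1mtn2-5 than in mtn1-1mtn2-1 and 0 were higher, where 27.7% of all genes were called, and the median was -0.49 beside -0.01 over all genes. PRR9 differed by -2.39 (SE 0.26, adjusted p = 1.30e-05), GI by -1.09 (SE 0.15, adjusted p = 9.37e-05) and JMJD5 by -0.98 (SE 0.13, adjusted p = 5.56e-05). TOC1, PRR7 and LUX differed by -0.57, -0.51 and -0.47. The call of PRR7 was lost without replicate 1 or 3 of either mutant, at -0.54 to -0.36, and that of LUX without replicate 1 of either, at -0.28 without that of mtn1-1mtn2-1 and -0.38 without that of mtn1-1mtn2-5. On spermidine 3 were higher (CCA1, PRR9 and PRR7) and 2 lower (TOC1 and JMJD5), where 26.0% of all genes were called. CCA1 differed by 0.79 (SE 0.19, adjusted p = 0.00553), PRR9 by 0.97 (SE 0.25, adjusted p = 0.00971) and TOC1 by -0.85 (SE 0.09, adjusted p = 1.50e-05). Without mtn1-1mtn2-5 replicate 1 on spermidine, 3 were called, and PRR9, at 0.78, and PRR7, at 0.52, were not. The call of PRR7 was also lost without mtn1-1mtn2-1 replicate 1 or 3 or mtn1-1mtn2-5 replicate 2, at 0.54, 0.50 and 0.57. This comparison shares its libraries with those against WT.

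Clock genes differed between the media in WT seedlings. On spermidine 3 of the 10 rose and 0 fell, where 9.26% of all genes were called, and the median of the members was 0.39 beside -0.01 over all genes. PRR9 rose from 2.49, 1.83 and 2.52 CPM to 22.4, 27.5 and 16.4 CPM, a log2 fold change of 3.28 (SE 0.27, adjusted p = 4.96e-06), and the media did not overlap. GI rose from 21.9, 29.6 and 23.3 CPM to 45.6, 53.0 and 39.7 CPM, a change of 0.89 (SE 0.15, adjusted p = 0.00106), also without overlap. CCA1 went from 87.3, 102 and 111 CPM to 183, 208 and 113 CPM, a change of 0.75 (SE 0.19, adjusted p = 0.0173). Replicate 3 on spermidine was the lowest of its group in LHY, CCA1, RVE8, PRR9, PRR7 and GI. The call of CCA1 was lost without mock replicate 1 or 2 or spermidine replicate 1 or 2, with values of 0.66, 0.76, 0.68 and 0.56, while without spermidine replicate 3 the count of members called was 5.

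The response was then read in each mutant. In mtn1-1mtn2-1, 0 of 10 members were called by edgeR, DESeq2 or limma, 1 at an unadjusted p under 0.05, and 0.0% of all genes were called by edgeR. PRR9 stood at 9.41 ± 3.0 CPM (SD, n = 3) on mock medium and 6.02 ± 1.26 CPM (SD, n = 3) on spermidine, and GI at 43.7 ± 2.32 CPM (SD, n = 3) and 38.3 ± 4.69 CPM (SD, n = 3). In mtn1-1mtn2-5, 3 of 10 rose and 0 fell, where 4.95% of all genes were called. PRR9 rose there from 1.75, 2.06 and 1.58 CPM to 14.6, 10.4 and 10.2 CPM, a change of 2.71 (SE 0.26, adjusted p = 0.000161). GI rose from 16.7, 24.6 and 20.5 CPM to 53.0, 51.9 and 45.4 CPM, a change of 1.28 (SE 0.15, adjusted p = 0.000506). PRR7 changed by 0.73 (SE 0.17, adjusted p = 0.0252), a call lost without replicate 1 or 3 on mock medium or 1 or 2 on spermidine, with values from 0.58 to 0.76.

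The difference of each mutant's response from that of WT was itself tested, and the mutants' responses were not tested against each other. In mtn1-1mtn2-1 the response to spermidine was lower than in WT for 4 of the 10 members and higher for 0, where 5.11% of all genes were called. The interaction was -3.92 (SE 0.36, adjusted p = 4.24e-05) on the log2 scale for PRR9 and -1.08 (SE 0.21, adjusted p = 0.00592) for GI. It was -0.95 (SE 0.26, adjusted p = 0.0476) for CCA1 and -0.91 (SE 0.24, adjusted p = 0.0414) for PRR7. When each of the 12 libraries was left out in turn, PRR9 and GI stayed called. The call of PRR7 was lost in 8 of 12 and that of CCA1 in 10 of 12, with values from -0.99 to -0.76 and from -1.05 to -0.77. The libraries whose loss ended both calls were WT replicates 1 and 2 on each medium, and mtn1-1mtn2-1 replicates 1 and 3 on each medium. For CCA1 they also included replicate 3 of WT and replicate 2 of mtn1-1mtn2-1 on mock medium. In mtn1-1mtn2-5 the interaction was called for 0 of 10 by edgeR, DESeq2 and limma, with 0 at an unadjusted p under 0.05, where 1.22% of all genes were called. Its interval was -1.32 to 0.18 for PRR9 and -0.04 to 0.84 for GI.

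**Figure D4:**
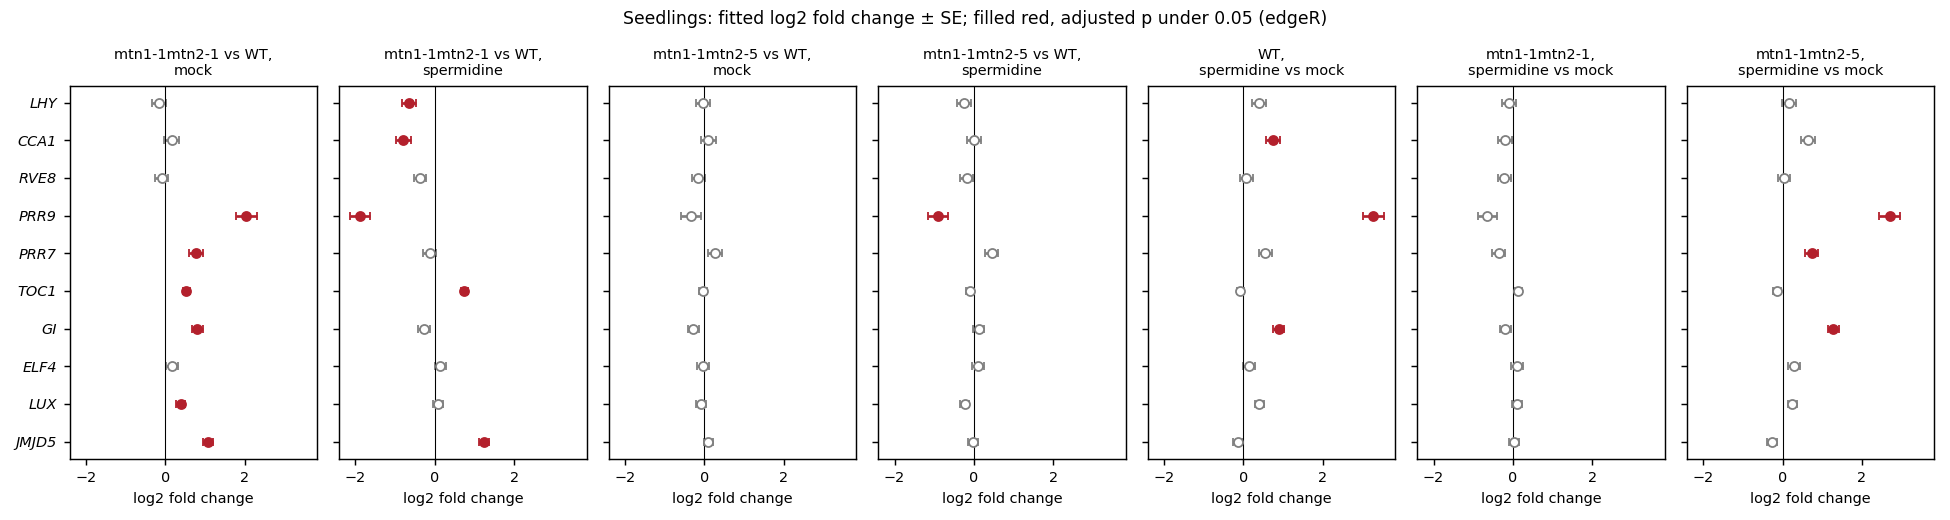
Fitted log2 fold change of the 10 clock genes in 7 seedling comparisons, with the standard error as bars and filled red points for an adjusted p under 0.05 by edgeR. PRR9 changes sides between media in mtn1-1mtn2-1 against WT (2.04 on mock medium, -1.88 on spermidine), while TOC1 and JMJD5 stay on the higher side.

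The other clock genes of seedlings were read from the same lists. In mtn1-1mtn2-1 against WT on mock medium 7 of the 16 were higher and 0 lower, where 15.7% of all genes were called, with a median of 0.27 beside 0.01 over all genes. FKF1 was higher by 1.06 (adjusted p = 0.00432) on the log2 scale, PRR5, a pseudo-response regulator, by 0.80 (adjusted p = 0.0293), and BOA, a relative of LUX, by 0.60 (adjusted p = 0.00959). Of the 17 output genes 3 were higher and 0 lower, a share near that of all genes, and the 3 included CDF3, which represses CO, by 1.02 (adjusted p = 0.000139), and CAT3, a catalase with an evening peak, by 0.93 (adjusted p = 0.00124). Of 10 photoreceptors 0 were called by edgeR, with 2 at an unadjusted p under 0.05. In mtn1-1mtn2-5 against WT, 0 of the 16 clock genes were called by edgeR on mock medium, with 4 at an unadjusted p under 0.05, where 7.69% of all genes were called. Of the 17 output genes 3 were higher there, CAT3 by 0.76 (adjusted p = 0.0047), CDF5 by 0.74 (adjusted p = 0.0475) and CDF3 by 0.48 (adjusted p = 0.0211). Of the 10 photoreceptors 1 was higher (PHYA) and 2 were lower (PHYD and PHYE). On spermidine 7 of the 17 output genes were higher and 0 lower, where 13.0% of all genes were called, with RVE7 at 0.91 (adjusted p = 0.0183) and PIF4, a growth-promoting bHLH factor, at 0.86 (adjusted p = 0.00247). Of the 16 clock genes 1 was higher there, LWD2, and of the photoreceptors 2 were lower. In WT on spermidine 2 of the 16 rose and 1 fell, where 9.26% of all genes were called. LNK3 and LNK1 rose by 1.17 (adjusted p = 7.28e-05) and 1.12 (adjusted p = 0.000315), and CHE, a TCP factor that represses CCA1, was at -0.83 (adjusted p = 0.000954). CDF3 rose by 1.73 (adjusted p = 2.03e-06), as 1 of 3 output genes that rose. In mtn1-1mtn2-5 on spermidine 2 of 16 rose and 1 fell, where 4.95% of all genes were called, with LNK1 at 1.60 (adjusted p = 0.000161). The interaction in mtn1-1mtn2-1 was lower for 3 of 16 and higher for 1, where 5.11% of all genes were called. It was -1.64 (adjusted p = 0.000276) for LNK3, -1.40 (adjusted p = 0.00171) for LNK1 and 0.90 (adjusted p = 0.0118) for CHE.

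The genes whose profiles were most like those of the members were found by the root mean square difference of centred log2 CPM among all genes tested. Over the 24 bud libraries the closest to LHY were CCA1 at 0.45, RVE8 at 0.57 and LNK3 (AT3G12320) at 0.66, where LHY itself varied with an SD of 2.17. Closest to TOC1 (SD 1.19) were AT5G62720 at 0.18, AT1G56300 at 0.26 and HCAR at 0.26. Closest to JMJD5 (SD 2.14) were AT4G33980 at 0.54, PRR3 at 0.62 and ELF4 at 0.66. Thus members were nearest to other members for LHY, and JMJD5 had ELF4 and PRR3 among its 3 nearest. On log2(TPM + 1), ELF4 stayed among them and PRR3 did not. The measure counts the size of a change, and TOC1 varied less (SD 1.19) than JMJD5 (SD 2.14). TOC1 could therefore not come as near, and its absence cannot show whether JMJD5 followed it. Over the 18 seedling libraries, where LHY varied with an SD of 0.29, the closest to it were RVE8 at 0.15, ANT1 at 0.16 and AT1G56020 at 0.16. Closest to TOC1 (SD 0.35) were AT5G27730, AT2G26355 and AT4G05150, at 0.12 to 0.13, and closest to JMJD5 (SD 0.58) were AT5G66052, NHX2 and TPS12, at 0.22 to 0.24.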

How the data were processed

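Polyadenylated RNA was sequenced from 42 libraries, 18 of seedlings and 24 of flower buds. The count tables deposited by the authors hold expected counts per gene without scaling, and the deposited TPM tables hold the authors' TPM per gene. Per the submitters' processing notes, Trim Galore, STAR, StringTie and the build TAIR10 were used. Strand setting and filters are not given in the sources used here. Column totals were 134 to 161 M in seedlings and 75.3 to 92.6 M in buds, in units of the tables, which were not tied to a number of fragments.

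Samples were grouped by the labels. In each tissue the 6 groups were fitted in 1 model with edgeR 4.0.16 (R 4.3.3) on the rounded expected counts: filterByExpr by group, TMM, quasi-likelihood F test, Benjamini-Hochberg adjustment over all genes of each of 22 comparisons, called under 0.05. Standard errors are the log2 fold change divided by the root of F, and intervals are 95%. Log2 CPM has a prior count of 2. The fit was run on counts simulated with its own dispersions, a check of the code and not of the model for these data. No 2 replicates were identical among 54 pairs. Alternatives were DESeq2 1.42.0 (size factors, Wald test), limma 3.58.1 on log2(TPM + 1) of genes with a mean of at least 0.5 TPM, other filters, only the compared groups, a replicate block, each library left out, and the TPM table's names for the bud columns. Gene names and promoters came from RefSeq TAIR10.1. The lists held 84 loci, and all 84 were in both count tables. Of the lists, up to 4 called genes with the largest changes are named, with the 3 nearest profiles to LHY, TOC1 and JMJD5. The members, lists and tests were chosen with earlier results of these data known.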

Additional observations from a re-analysis of the deposited data

Results flagged for a closer look

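In 60 groups of 4 bud libraries (10 genes in 6 groups), 5 libraries stood apart from their group by Dixon's test, where chance gives about 1 in 20 groups. LHY in replicate 1 of the mtn1-1mtn2-1 mock buds was at 87.1 CPM, against 13.5 to 23.9 CPM in its partners, and CCA1 and RVE8 were also highest and TOC1, GI, ELF4 and LUX lowest in that library. LHY in replicate 2 of the mock buds labelled WT was at 3.0 CPM, against 2.05 to 2.14 CPM. PRR9 in replicate 3 of the mock buds labelled G3 was at 36.4 CPM, in a group that otherwise spanned 35.4 to 35.5 CPM. GI in replicate 4 of the spermidine buds labelled WT was at 129 CPM, against 148 to 149 CPM. JMJD5 in replicate 3 of the mock buds labelled G3 was at 6.77 CPM, against 4.59 to 4.87 CPM.

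The response of seedlings to spermidine differed between mtn1-1mtn2-1 and WT by edgeR's test of the interaction, by -0.95 on the log2 scale for CCA1, -3.92 for PRR9, -0.91 for PRR7 and -1.08 for GI. The group means of PRR9 behind that value were 2.28 and 22.1 CPM in WT on mock medium and spermidine, and 9.41 and 6.02 CPM in the mutant.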

How the results depend on the processing

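Of 44 named changes that were called, 21 stayed called in their direction under every alternative run, 15 were lost under at least 1 and 10 turned, 2 of them being both lost and turned (LHY and ELF4 in labelled G3 against mtn1-1mtn2-1 mock buds). All 10 that turned were in buds and turned under the names of the TPM table, put on the count columns or tested by limma on log2(TPM + 1). Under limma and under the exchanged count names in turn, mtn1-1mtn2-1 against WT on mock medium gave -1.62 and -1.27 for LHY and 0.61 and 0.79 for TOC1, while PRR7 kept its sign at 0.15 and 0.16 and was not called. G3 against WT gave -4.65 and -5.23 for LHY, -0.44 and -0.42 for PRR7, 2.55 and 2.65 for TOC1 and 4.98 and 5.17 for ELF4. G3 against mtn1-1mtn2-1 gave -3.03 and -3.96 for LHY, -2.49 and -3.09 for CCA1, 1.94 and 1.87 for TOC1 and 4.20 and 3.94 for ELF4. The exchange of names is the construction of these alternatives, so the turned signs are a change of labels. The exchanged names are those that go with the MTN1 and MTN2 levels. By the same 2 alternatives the members called in mock buds were 5 and 4 in mtn1-1mtn2-1 against WT, where 9 were called, and 9 and 9 in G3 against mtn1-1mtn2-1, where 4 were.

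In fits restricted to the groups being compared, members called moved from 5 to 3 in mtn1-1mtn2-1 against WT seedlings on spermidine, from 4 to 2 in the interaction of mtn1-1mtn2-1 seedlings, from 4 to 2 in labelled G3 against mtn1-1mtn2-1 mock buds, and from 0 to 2 for spermidine in buds labelled WT and in those labelled G3. Fewer samples enter that fit. For spermidine in WT seedlings DESeq2's Wald test and limma each called 5 where 3 were called, and the cause was not tested. With each library left out in turn, the count ranged from 0 to 1 in mtn1-1mtn2-5 against WT seedlings on spermidine, 3 to 6 between the mutant seedlings on spermidine, 2 to 5 for spermidine in WT seedlings, 2 to 4 in the mtn1-1mtn2-1 interaction, 3 to 8 in labelled G3 against mtn1-1mtn2-1 mock buds, and 0 to 1 for spermidine and for its interaction in mtn1-1mtn2-1 buds, where mock replicate 2 was the library whose loss gave 1.

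Same-numbered samples of compared groups deviated together little (correlations of -0.13 to 0.11). These values gave no clear sign that replicate numbers pair samples, and with so few samples cannot show that they do not. In mtn1-1mtn2-1 against WT seedlings on spermidine all 3 samples correlated best with their own number, a hint from the data and not the design. With the replicate block the count was 5 in mtn1-1mtn2-1 against WT seedlings on mock medium, where LUX was lost, and 3 in the mtn1-1mtn2-1 interaction, where CCA1 was lost. No other named call was lost and none turned under the block. Among the 3 genes nearest to JMJD5, 1 was shared between log2 CPM and log2(TPM + 1) in buds and 0 in seedlings.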
